A study of Mus musculus with 24 samples.

Results

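The genes followed here build the axoneme, the microtubule core of the sperm flagellum and of motile cilia, or carry proteins along it. They were picked by name: every symbol of the count tables that starts with Cfap, Dnah, Ift, Tekt, Drc or Rsph and goes on with a number. The rule uses no measured value and found 56 of 24456 genes, all of them protein-coding. By role they are 17 cilia and flagella associated proteins (Cfap), 5 outer arm and 6 inner arm dynein heavy chains (Dnah), 7 radial spoke genes (Rsph), 2 subunits of the nexin-dynein regulatory complex (Drc), 5 tektins (Tekt), and 3 genes of intraflagellar transport complex A and 11 of complex B (Ift). The choice by name leaves out axoneme genes with other names, which are described further below as a separate list.

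Total RNA of mouse testis was sequenced in wild-type (WT) males and in homozygous *Atad2* knockout (KO) males. The mice were 20, 22, 24 and 26 days old, and each genotype gave 4 libraries at either of the earlier ages and 2 at either of the later ones. ATAD2 is a chromatin factor with a bromodomain and an ATPase domain, and the study asked what its absence does to transcription while haploid germ cells appear. The KO allele carries a lacZ cassette that joins the first 11 exons to β-galactosidase, and a Cre recombinase driven by the ubiquitous CMV promoter removed the neo cassette and exon 12, so that the change is not limited to germ cells. A name such as WT_d20_2 gives a library's genotype, age and replicate number.

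A motile axoneme is a ring of doublet microtubules around a central pair. Outer and inner dynein arms are the motors that slide neighbouring doublets, radial spokes pass signals from the central pair to the arms, the nexin-dynein regulatory complex ties doublets together, and tektins and several Cfap proteins lie inside the doublet wall and stabilise it. Intraflagellar transport moves building material along the growing axoneme, with complex B taking cargo to the tip and complex A returning it. In the testis the flagellum grows on round spermatids after meiosis, but many of its genes are already transcribed in pachytene spermatocytes. In the first wave of spermatogenesis the first round spermatids form at about the earliest of these ages, and elongating spermatids follow towards the latest. In RNA from a whole organ, fewer cells of a type and less RNA per cell cannot be told apart.

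Each library held between 10709667 and 19491935 counts assigned to genes, and the 56 genes took between 0.600% of them in WT_d20_2 and 1.56% in KO_d26_1. All 56 passed the filter on low counts, and 54 of them had at least 10 counts in each of the 24 libraries. The targeted gene *Atad2* had log2 fold changes of KO against WT of -1.67, -1.12, -1.43 and -1.25 at days 20, 22, 24 and 26 (adjusted p = 5.70e-05, 0.00233, 0.0222 and 0.0628 by the quasi-likelihood test of edgeR), and its level in each of the 12 KO libraries lay below that in each of the 12 WT libraries. WT_d20_2 stood apart. Several of its dynein genes were low, with *Dnah17* at 136 CPM (the gene's counts relative to the library total, scaled between libraries by the trimmed mean of M values) against 458 to 584 CPM in the other WT libraries of day 20, and mitochondrial 16S ribosomal RNA took 1.25% of its counts, the highest share of the 24 libraries. *Dnah7a*, *Dnah7b* and *Dnah11* were not low in it.

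**Figure D1:**
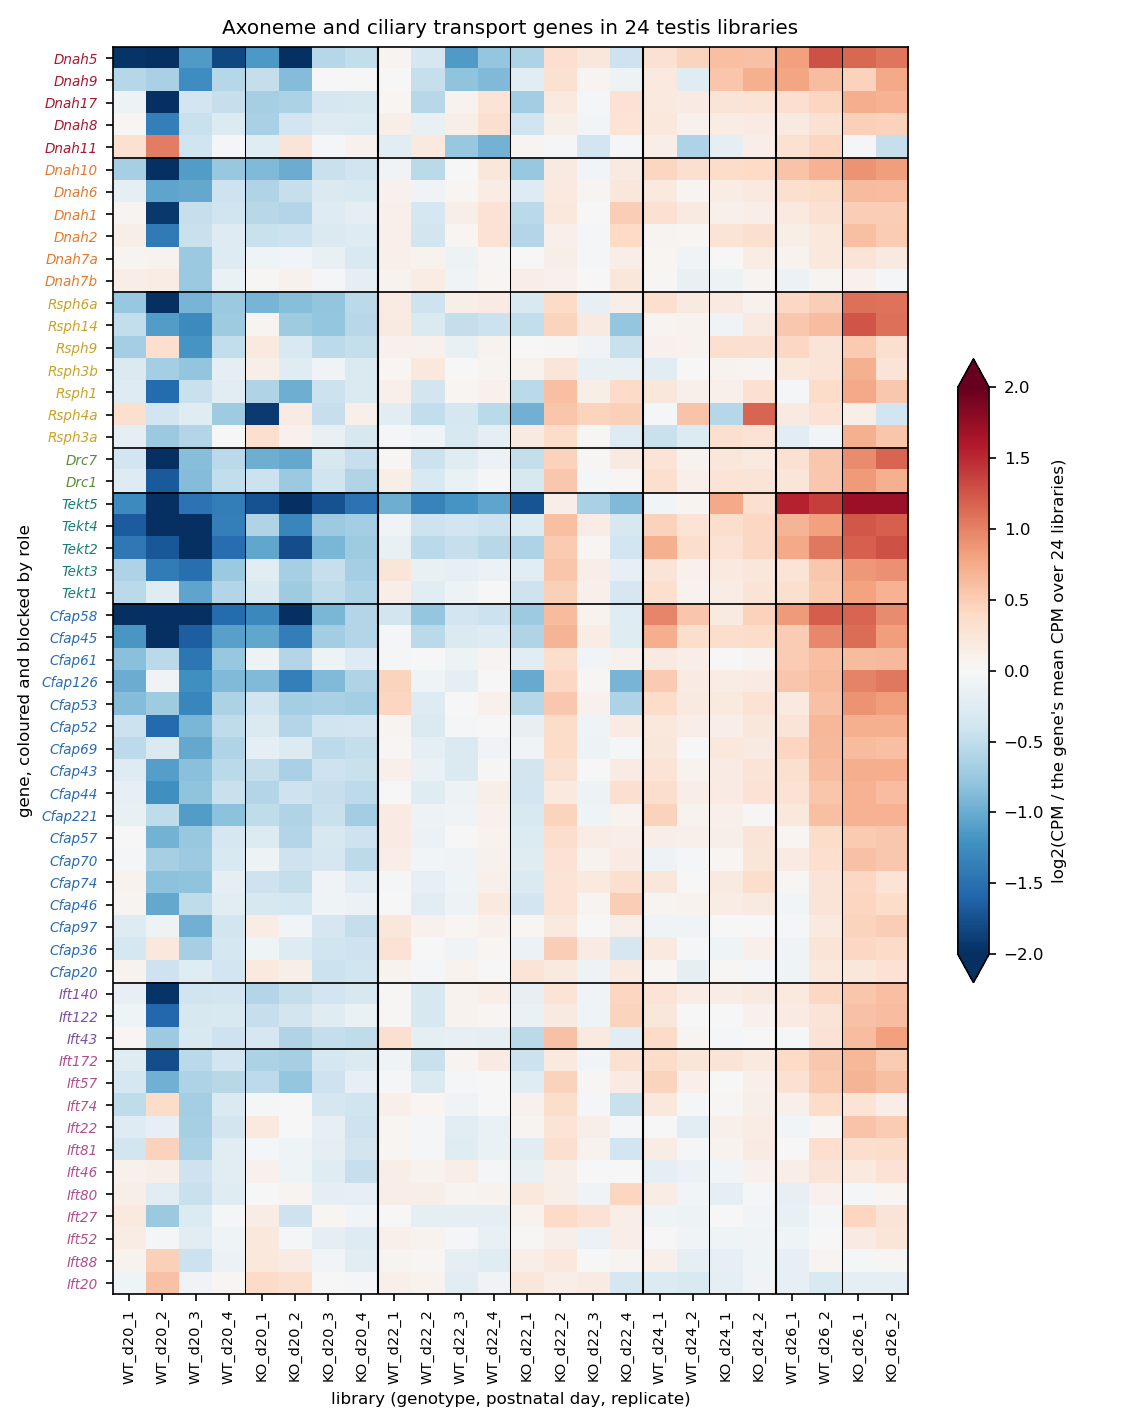
The 56 genes (rows, blocked and coloured by role) in the 24 libraries (columns, ordered by day, then genotype), as log2 of the CPM over the gene's own mean. Blue marks libraries below that mean and red those above it. Most genes turn from blue at day 20 to red at day 26, WT_d20_2 is deep blue in several dynein rows, and many of the transport complex B rows at the bottom change little.

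The testis used the sperm forms of the outer arm and of the spoke head at much higher levels than the forms known from motile cilia of other organs. Levels between genes are compared here as mean CPM per kilobase of exon over the 24 libraries. Of the outer arm heavy chains, *Dnah8* (chr17:30624354-30877365 on mm10) stood at 114 and *Dnah17* (chr11:118021723-118130634) at 39.1 CPM per kb, both of them chains of the sperm flagellum. The chains of airway and other motile cilia stood at 0.455 for *Dnah9*, 0.195 for *Dnah5* and 0.136 for *Dnah11*. In each of the 24 libraries *Dnah17* lay above all of these 3. The spoke head showed the same order, with the testis form *Rsph6a* at 35.9 CPM per kb and its relative *Rsph4a*, which serves motile cilia elsewhere, at 0.225. *Rsph1*, another spoke head protein, had the highest level per kb of all 56 genes at 305, followed by *Cfap97* at 127, *Dnah8*, *Cfap36* at 109, *Tekt1* at 96.5 and *Ift74*, a core subunit of complex B, at 91.0. The ranges over the libraries of all 55 pairs of neighbours in this order overlapped, so that the order is firm only between genes far apart in it. Exon lengths came from GENCODE M21, which may differ from the gene models behind the counts, and *Dnah8* has a long union of exons there.

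**Figure D2:**
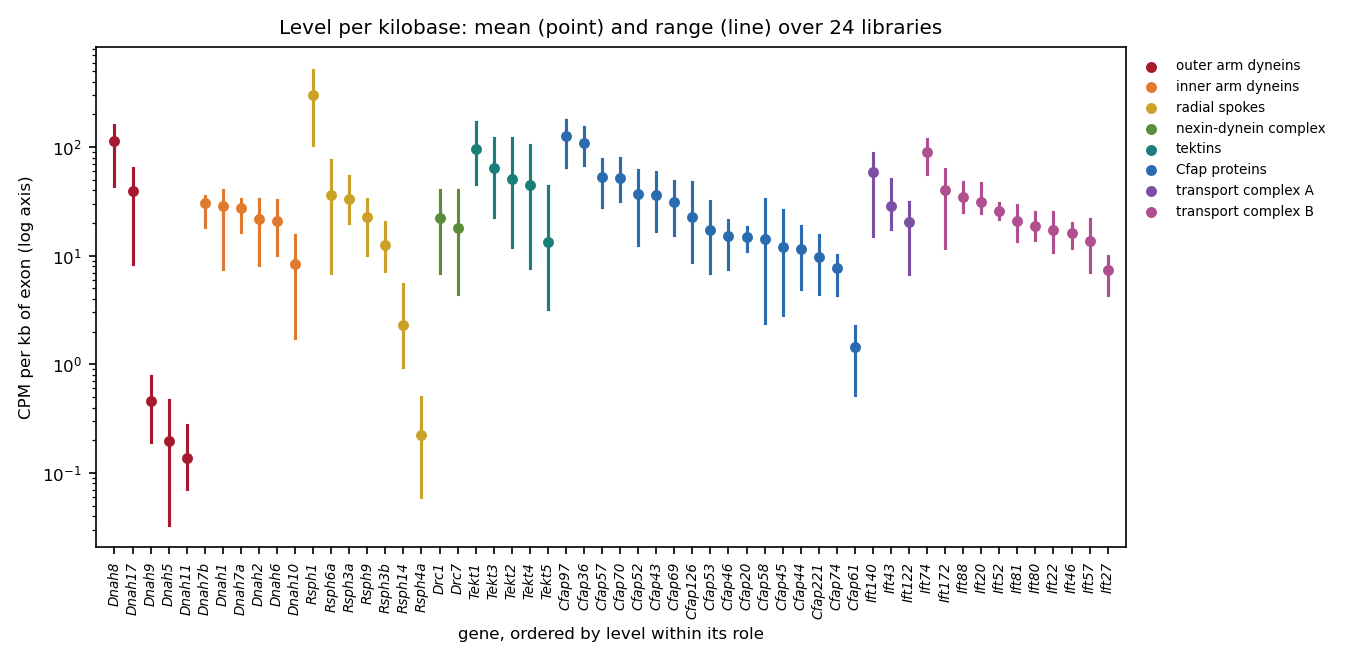
CPM per kilobase of exon on a log axis for each of the 56 genes, grouped and coloured by role. Points are means and lines run from the lowest to the highest of the 24 libraries. *Dnah8* and *Dnah17* sit far above *Dnah9*, *Dnah5* and *Dnah11*, and *Rsph6a* far above *Rsph4a*.

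The 56 genes lay on 18 chromosomes, with 8 on chromosome 11 and 7 on chromosome 17, and none on X or Y. To see what their start sites share, the promoter windows of RefSeq (build GRCm38.p6, 250 bases before to 50 after the start) were searched on both strands. Windows were found for 49 of the 56 genes. The letters GTTGCC, the core of the X-box that RFX factors of ciliated cells and of spermatocytes bind, were in a window of 18 of the 49 genes (36.7%) and of 14.1% of all 27025 genes in the table. They were in 13 of 38 axoneme genes and in 5 of 11 transport genes. A strict form of the full pair, GTTNCC followed after 0 to 3 bases by GGNAAC, was in 1 of the 49 (2.04%), *Ift57*, against 0.936% of all genes. This pair can overlap the first motif. Looser forms of the pair were not searched, so the share with a complete X-box is not known. The cyclic AMP response element TGACGTCA, bound by the spermatid factor CREM, was in 2 of the 49 (4.08%), *Dnah6* and *Ift57*, against 2.03%. These matches describe letters only.

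The stretches around GTTGCC or its complement GGCAAC are shown for those members with the letters that the naming rule picked, so that the values of these genes can be read beside their start sites. Each is 30 bases from the RefSeq window, 5′ to 3′ on the strand of the gene, with the motif in capitals. The other members with the letters, *Cfap20*, *Cfap44*, *Cfap46*, *Cfap74*, *Dnah7a*, *Ift57*, *Ift88* and *Rsph3b*, are not shown. *Tekt1*, *Tekt2* and *Dnah10* hold the letters at 2 places each.
Tekt4, chr17:25471586-25471615: caatgttccttaGGCAACcaggaaccttgc
Tekt2, chr4:126325767-126325796: cgcagctgcgcgGTTGCCtggctaagctga
Tekt2, chr4:126325693-126325722: gggcggttgctcGGCAACcagagccgcaaa
Tekt1, chr11:72361900-72361929: tcttctaactagGGCAACgttgcgtccgtc
Tekt1, chr11:72361880-72361909: tgcgtccgtccgGTTGCCatagagaccgca
Cfap58, chr19:47937641-47937670: gggggcgtggcgGTTGCCaggcgaccgaag
Dnah10, chr5:124725053-124725082: cgcgctggcgccGTTGCCcaggtccccgtt
Dnah10, chr5:124725083-124725112: gctagggtcgccGTTGCCacggacgcccgc
Dnah7b, chr1:46066678-46066707: tacaggagcacaGTTGCCacccacccttaa
Drc1, chr5:30281370-30281399: ctgctttcccttGGCAACggcttgttccta
Ift140, chr17:25015965-25015994: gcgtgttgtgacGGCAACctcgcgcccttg
Ift172, chr5:31291097-31291126: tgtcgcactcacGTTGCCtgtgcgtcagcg
Ift27, chr15:78174073-78174102: gggttgatgatgGTTGCCaggagcctgttt
Genes with the motif include some that rose strongly with age (*Tekt4*, *Tekt2*, *Cfap58*) and some that were not called (*Dnah7b*, *Ift27*). The strongly rising *Tekt5*, *Dnah5* and *Cfap45* have no match to these exact letters in their windows. Variants of the letters were not searched, so an X-box of another form may be present.

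The first comparison asked which of the genes rise as the first wave passes from meiosis into spermatid development in WT testis. Between day 20 and day 26, 35 of the 56 genes were called higher (adjusted p under 0.05, edgeR quasi-likelihood test with Benjamini-Hochberg adjustment over 17170 genes) and 0 were called lower; over all genes, 24.4% were called higher. The median log2 fold change was 0.76 over the 56 genes and -0.04 over all genes. Of the 35 genes, 24 rose at least 2-fold. Leaving out WT_d20_2 gave 38 called genes and a median of 0.63. *Cfap36*, *Dnah7a*, *Ift22*, *Ift74* and *Ift81* were called only without it and *Cfap74* and *Dnah8* only with it, and leaving out 1 library at a time gave 26 to 38. Summed CPM of 8 elongating spermatid markers went over the same days from 1.58 to 8.21 in the libraries of day 20 to 1913 to 3040 in those of day 26, and that of 10 round spermatid markers from 22.7 to 66.9 up to 824 to 859. Summed pachytene markers lay at 2718 to 3578 CPM at day 20 and 5513 to 6088 CPM at day 26, Leydig markers at 348 to 454 and 1258 to 2050 CPM. Sertoli markers lay at 1616 to 2342 and 1055 to 1229 CPM and peritubular markers at 602 to 1057 and 419 to 496 CPM. Spermatogonia markers lay at 268 to 334 and 173 to 185 CPM. The part of these shifts in cells in the rise of the genes was not tested.

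All 5 tektins rose, and *Tekt5*, *Tekt4* and *Tekt2* were among the 5 largest rises, with *Cfap58* and *Dnah5*. The calls of the 10 largest rises were kept without any 1 of the 24 libraries. *Cfap58* (chr19:47937675-48035387), whose product is needed for the sperm flagellum, stood at 11.6, 11.6, 8.38 and 17.1 CPM at day 20 and at 89.8 and 115 CPM at day 26, a log2 fold change of 3.08 ± 0.33 (SE, adjusted p = 4.20e-07). *Tekt5* (chr16:10357948-10395490), a sperm tektin, went from 9.90, 5.90, 8.61 and 9.21 CPM to 69.5 and 62.4 CPM, 2.96 ± 0.29 on the log2 scale (adjusted p = 1.25e-07). In both genes the libraries of the latest day lay several times above all of the earliest. *Tekt4* (chr17:25454615-25476602) went from 28.0, 17.6, 15.3 and 34.4 CPM to 142 and 156 CPM (log2 fold change 2.64 ± 0.26) and *Tekt2* (chr4:126322121-126325688) from 35.5, 29.6, 22.9 and 33.5 CPM to 162 and 198 CPM (2.57 ± 0.26). The other tektins rose less, by 1.42 for *Tekt3* and 1.01 for *Tekt1*.

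Of the dynein heavy chains, 4 of 5 outer arm genes and 2 of 6 inner arm genes were called. Of the low outer arm chains, *Dnah5* (chr15:28203752-28472052) went from 0.786, 0.527, 1.39 and 0.864 CPM to 5.39 and 7.39 CPM, a log2 fold change of 2.77 ± 0.40 (adjusted p = 8.24e-06), and *Dnah9* from 4.87, 4.63, 3.06 and 4.90 CPM to 12.6 and 11.1 CPM (1.45 ± 0.26), while *Dnah11* had a log2 fold change of 0.07 and was not called. The sperm chains started high, with log2 fold changes of 0.99 ± 0.34 for *Dnah17* (adjusted p = 0.0254) and 0.67 ± 0.24 for *Dnah8* (adjusted p = 0.0293). Without WT_d20_2 they were 0.66 ± 0.22 (adjusted p = 0.0208) and 0.42 ± 0.18 (adjusted p = 0.061), so that *Dnah8* was not called and 3 of 5 outer arm genes were. Both calls were also lost without WT_d26_1 and without WT_d26_2. *Dnah8* already stood at 3116, 1189, 2257 and 2534 CPM at day 20. On the inner arm, *Dnah10* (chr5:124725085-124834308) rose from 84.7, 28.1, 62.2 and 79.3 CPM to 201 and 217 CPM (1.71 ± 0.30), and its lowest value was that of WT_d20_2. *Dnah7b* (chr1:46066315-46373546) stood at 670.5, 679, 367 and 559 CPM at day 20 and at 566 and 635 CPM at day 26, with a log2 fold change of 0.08 ± 0.17 that was not called. *Dnah7b* and *Dnah7a* are close copies whose promoter windows share 85.9% of 263 aligned bases, and since read pairs with several alignments were discarded their counts are uncertain. *Dnah1* (0.77 ± 0.32, adjusted p = 0.0576), an inner arm chain needed for sperm motility, was not called either, and without WT_d20_2 its value was 0.46 ± 0.22 (adjusted p = 0.0945).

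Both subunits of the nexin-dynein regulatory complex rose, *Drc7* by 1.25 ± 0.29 and *Drc1* by 1.13 ± 0.25 on the log2 scale (adjusted p = 0.00155 and 9.33e-04). Of the 7 radial spoke genes 4 rose. *Rsph6a* (chr7:19054690-19074447) went from 53.2, 17.5, 47.1 and 53.9 CPM to 119.7 and 126 CPM (1.51 ± 0.27), with WT_d20_2 again lowest. *Rsph14* went from 4.87, 3.16, 2.83 and 4.18 CPM to 10.0 and 10.5 CPM (1.45 ± 0.29). *Rsph1*, the gene with the highest level per kb, was at 352, 145, 307 and 361 CPM and then at 406 and 537 CPM (0.69 ± 0.29, adjusted p = 0.0571) and was not called. Without WT_d20_2 its value was 0.43 ± 0.24 (adjusted p = 0.155). Of the 17 Cfap genes 14 rose, with a median log2 fold change of 1.04 over the 17. *Cfap45*, a protein of the inner doublet wall, went from 31.1, 16.4, 22.0 and 32.8 CPM to 98.2 and 136 CPM (2.19 ± 0.28).

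Fewer transport genes than axoneme genes were called. Of the 42 axoneme genes 31 were called, with a median log2 fold change of 1.02, and of the 14 transport genes 4 were called (28.6%, against 24.4% of all genes), with a median of 0.33. Without WT_d20_2 the counts were 31 and 7, with *Ift22*, *Ift74* and *Ift81* added. In KO over the same days, 37 of the 42 axoneme genes (88.1%) and 8 of the 14 transport genes (57.1%) were called, against 27.2% of all genes. The 4 called ones were *Ift140* (0.90 ± 0.28), which went from 439, 126, 371 and 375 CPM to 563 and 658 CPM, *Ift122*, *Ift172* and *Ift57*. The lowest value of *Ift140* is that of WT_d20_2, its log2 fold change without it was 0.59 ± 0.16 (adjusted p = 0.00454), and its call was lost without WT_d26_2. *Ift172* (chr5:31253277-31291116), the largest subunit of complex B, went from 224, 77.5, 182 and 203 CPM to 348 and 385 CPM (1.09 ± 0.26, adjusted p = 0.00218). Complex B genes that stood out as flat, named after their values were seen, were *Ift88* (-0.09 ± 0.18), *Ift52* (0.01) and *Ift27* (0.07). Without WT_d20_2 these values turned sign, to 0.05 ± 0.14, -0.03 ± 0.13 and -0.11 ± 0.15. *Ift88* was at 168, 222, 118 and 148 CPM at day 20 and at 142 and 165 CPM at day 26, and the values overlap. The difference between axoneme and transport genes was not tested.

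The WT rise began early. Between days 20 and 22, 24 genes were called higher (all genes, 12.9%), 23 of them axoneme genes, and 21 were called without WT_d20_2 (*Cfap36*, *Ift74* and *Rsph9* added, *Cfap44*, *Cfap57*, *Cfap70*, *Dnah5*, *Drc1* and *Ift57* lost). Between days 22 and 24, 3 were called higher, *Cfap58*, *Tekt2* and *Tekt5* (all genes, 5.88%); 1 was called without WT_d20_2, and 0 without any 1 of WT_d22_2, WT_d22_3, WT_d22_4, WT_d24_1 and WT_d24_2. Between days 24 and 26, 0 were called in either direction (all genes, 0.274%), 3 had an unadjusted p under 0.05, and DESeq2 called 1, *Tekt5*. These steps compare 4 libraries with 4, then 4 with 2, then 2 with 2, so the counts called do not measure the pace of the rise. Over the 35 genes called from day 20 to day 26, a median of 47.7% of the rise in mean CPM was reached by day 22 and 73.9% by day 24. The means of day 20 include WT_d20_2, and the shares without it are not given. *Tekt5* was the latest, with 4.43% of its rise by day 22 and 27.3% by day 24: it stood at 12.2, 9.53, 10.5 and 11.6 CPM at day 22 and 23.2 and 25 CPM at day 24. *Dnah9* had reached 38.1% by day 24. *Tekt3*, by contrast, had reached 57.6% by day 22.

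The genes also rose in KO testis. Between days 20 and 26, 45 of the 56 genes were called higher and 0 lower in KO (all genes, 27.2%), with a median log2 fold change of 0.92. All 35 genes called in WT were also called in KO, and 10 were called in KO alone: *Cfap36*, *Cfap46*, *Dnah1*, *Dnah2*, *Ift22*, *Ift43*, *Ift46*, *Ift81*, *Rsph1* and *Rsph3a*. Whether the rise of these 10 differs between genotypes was not tested by itself. The joint test over the ages, given below, includes that difference and called 0 of the 56. The lowest adjusted p of these 10 in it was 0.721 (*Ift43*, edgeR). Each had a log2 fold change above 0 in WT too. *Tekt5* had the largest rise, from 7.18, 5.82, 7.20 and 8.60 CPM to 78.2 and 79.2 CPM (3.45 ± 0.29, adjusted p = 9.56e-08). *Ift43*, a complex A subunit, was at 37.9, 31.3, 34.3 and 33.6 CPM and then at 73.4 and 84.2 CPM in KO (1.20 ± 0.23), and at 49.0, 29.0, 38.7 and 35.6 CPM and then at 46.8 and 58.4 CPM in WT (0.46 ± 0.23). Without WT_d26_2 the value in WT was 0.295. *Rsph1* rose by 1.20 ± 0.28 in KO. Called in neither genotype were 11 genes, among them *Ift74*, *Dnah7b* and *Ift27*. Without WT_d20_2, 48 genes were called higher and 1, *Ift20*, lower in KO. *Cfap36*, *Dnah7a*, *Ift22*, *Ift81* and *Ift74* were then called in both genotypes, and those called higher in KO alone were *Cfap46*, *Cfap74*, *Dnah1*, *Dnah2*, *Dnah8*, *Ift27*, *Ift43*, *Ift46*, *Rsph1* and *Rsph3a*.

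**Figure D3:**
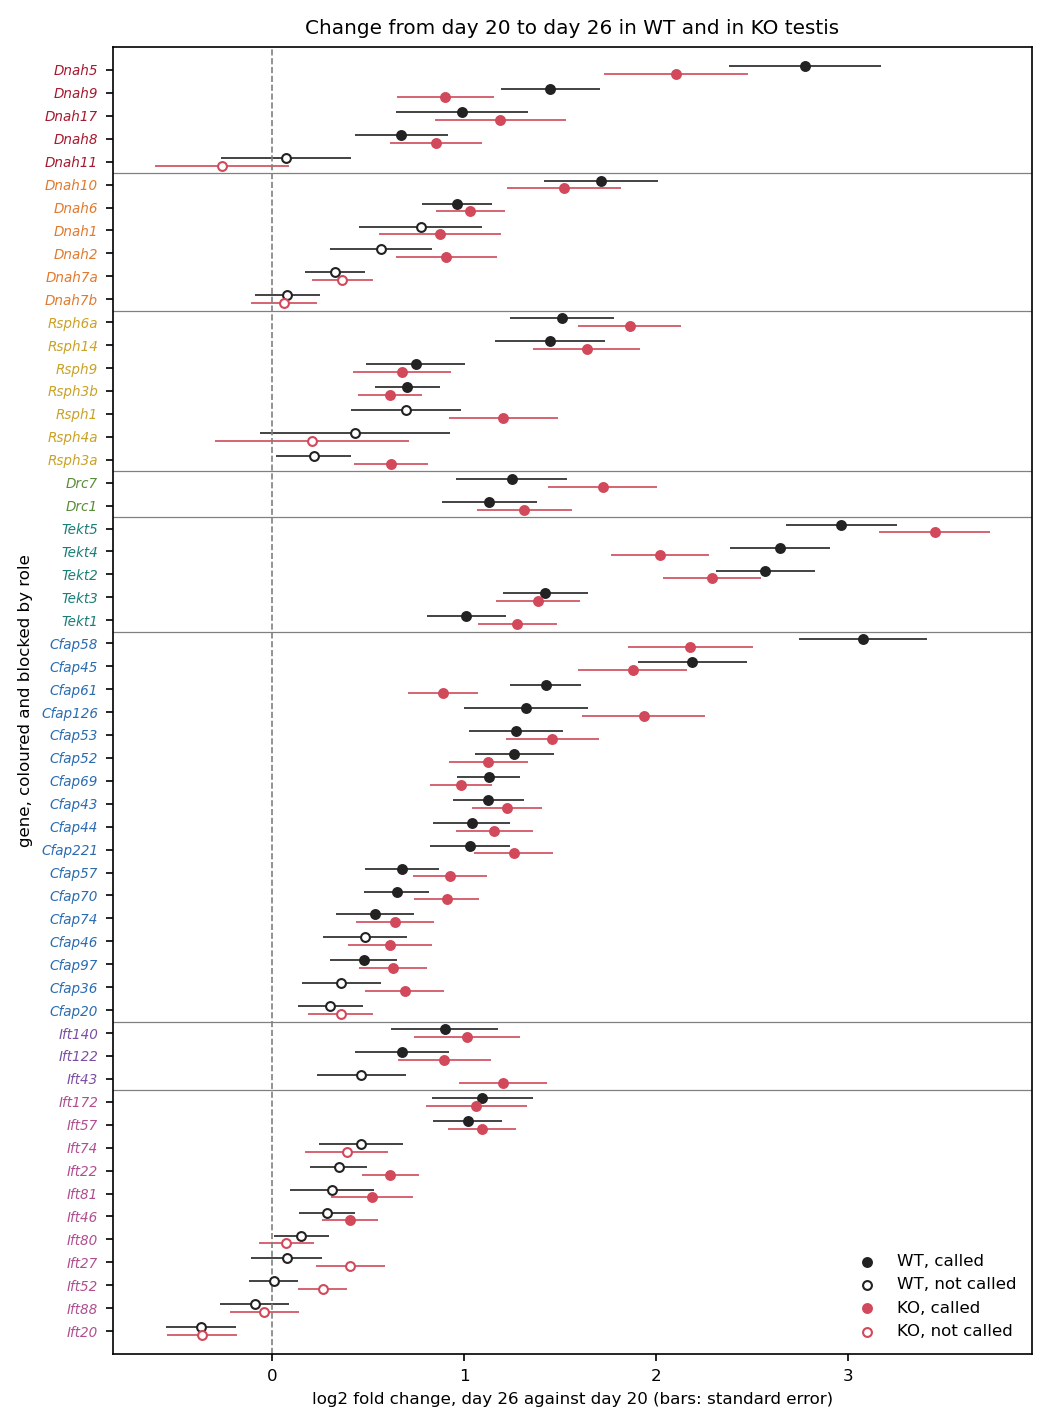
Log2 fold change from day 20 to day 26 for each of the 56 genes in WT (black) and KO (red), grouped by role, with the standard error as bar. Filled points were called at an adjusted p under 0.05. In WT, *Cfap58*, *Tekt5*, *Dnah5*, *Tekt4* and *Tekt2* lie furthest to the right. *Ift88* and *Ift80* of complex B lie near 0 in both genotypes.

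The second comparison, between KO and WT at each age, addresses the effect of the loss of *Atad2*. At day 20, 2 of the 56 genes were called higher in KO and 0 lower; over all genes 2.98% were called higher. *Tekt4* stood at 28.0, 17.6, 15.3 and 34.4 CPM in WT and at 58.2, 35.9, 53.4 and 55.3 CPM in KO, so that every KO library lay above every WT library. Its log2 fold change was 1.09 ± 0.22 (adjusted p = 0.011). Without WT_d20_2 it was 0.96 ± 0.24 (adjusted p = 0.0497), and over all alternatives its adjusted p ran from 1.43e-04 to 0.167, the latter with day 20 fitted alone. *Tekt4* was the 1 gene of the 56 whose groups did not overlap at this age, against 3.03% of all genes with every KO library above every WT library.

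*Cfap61*, a protein at the base of the radial spokes, stood at 8.49, 10.4, 5.55 and 9.0 CPM in WT and 14.2, 10.1, 14.1 and 12.7 CPM in KO (0.62 ± 0.16, adjusted p = 0.0316). The groups overlap through WT_d20_2 and KO_d20_2. Without WT_d20_2 its log2 fold change was 0.73 ± 0.16 (adjusted p = 0.0335). The call was lost without any 1 of KO_d20_1, KO_d20_3, KO_d20_4, WT_d20_1 and WT_d20_3, and over all alternatives its adjusted p ran from 0.00676 to 0.437. Next by p came *Cfap58* at 11.6, 11.6, 8.38 and 17.1 CPM in WT and 20.5, 11.7, 26.3 and 33.3 CPM in KO (0.92 ± 0.29, adjusted p = 0.106), *Tekt3* (0.52 ± 0.19, 0.186) and *Tekt2* (0.60 ± 0.22, 0.192). None of these 3 was called. Without KO_d20_2, the KO library with the lowest level in each of them except *Tekt3*, 4 genes were called, *Cfap58* and *Tekt2* with the former pair.

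The differences of all 56 genes at this age had a median of 0.14 (all genes 0.0046), and 46 lay above 0 (all genes 50.9%). Without WT_d20_2 the median was 0.09 and 35 lay above 0. The sign of 19 genes turned, among them *Dnah8*, *Dnah17*, *Dnah1*, *Drc1*, *Drc7* and *Ift140*, which went from above to below 0. Without WT_d20_1 the median was 0.27. Tektins had a median of 0.52 (0.40 without WT_d20_2) and complex B genes of 0.04 (0.088 without it). Markers of later germ cells moved with this: 9 of 10 round spermatid markers were called higher in KO at day 20, their summed level lying between 54.7 and 176 CPM in KO and between 22.7 and 66.9 CPM in WT, and 3 of 8 elongating spermatid markers were called higher. Of 8 pachytene markers 0 were called, with sums of 2718 to 3578 CPM in WT and 3326 to 4072 CPM in KO. Summed Sertoli markers lay at 1616 to 2342 CPM in WT and 1536 to 1732 CPM in KO, peritubular markers at 602 to 1057 and 523 to 667 CPM, spermatogonia markers at 268 to 334 and 232 to 287 CPM, and Leydig markers at 348 to 454 and 337 to 868 CPM, with 0 called in these lists. The part of these cells in the values of *Tekt4* and *Cfap61* was not tested.

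At day 22, 0 of the 56 genes were called in either direction (all genes, 2.51%), and 2 had an unadjusted p under 0.05; DESeq2 called 0. The lowest p was that of *Ift27*, a small GTPase of complex B, at 21.0, 18.6, 18.5 and 18.6 CPM in WT and 22.2, 27.5, 25.8 and 23.1 CPM in KO (0.36 ± 0.15, adjusted p = 0.236). It was the 1 gene with every KO library above every WT library, against 3.64% of all genes. *Dnah9* followed with 7.32, 5.27, 4.14 and 3.94 CPM in WT and 6.23, 8.96, 7.58 and 6.77 CPM in KO (0.52 ± 0.22). *Tekt5* (7.26, 26.4, 15.2 and 12.9 CPM in KO, 0.50 ± 0.25), *Tekt4* (0.40 ± 0.22) and *Cfap58* (0.50 ± 0.28) had the highest KO value in KO_d22_2, which also had the highest summed round spermatid markers of its day, at 505 CPM against 134 to 292 CPM in the other 7 libraries. Summed elongating spermatid markers of this day lay at 41.1 to 88.7 CPM in WT and 87.9 to 586 CPM in KO, highest in the same library, with 4 of 8 called higher. Without KO_d22_2 the log2 fold changes of these 3 genes were 0.10, 0.18 and 0.21. *Tekt5* was called higher without KO_d22_1, the KO library with its lowest level at this age. The median over the 56 genes was 0.10, and 48 lay above 0 (all genes 52.1%). The median was 0.019 without KO_d22_2, 0.19 without KO_d22_1 and 0.15 without WT_d22_1.

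At day 24, 0 genes were called (all genes, 0.0874%), 2 had an unadjusted p under 0.05, and DESeq2 called 0. With 2 libraries per genotype, 15 genes had both KO libraries above both WT libraries and 5 had them below, against 22.6% and 21.4% of all genes. *Rsph3a*, a protein of the spoke stalk, had the lowest p, at 74.0 and 82.9 CPM in WT and 126 and 123 CPM in KO (0.67 ± 0.23, adjusted p = 0.544). *Dnah9* was at 8.32 and 6.11 CPM and 10.6 and 11.8 CPM (0.64 ± 0.30) and *Tekt5* at 23.2 and 25 CPM and 40.3 and 29.8 CPM (0.54 ± 0.34). *Ift22*, another small GTPase of complex B, had a log2 fold change of 0.22 ± 0.17. *Cfap58* was the lowest of the 56 at this age, with 98.4 and 72.8 CPM in WT and 56.5 and 68.8 CPM in KO (-0.45 ± 0.39). Without WT_d24_1 the values of *Cfap58* and *Ift22* were -0.21 and 0.34, without WT_d24_2 that of *Ift22* was 0.13, and without KO_d24_1 that of *Tekt5* was 0.31. The median over the 56 genes was 0.04. It was 0.097 without WT_d24_1, -0.033 without WT_d24_2 and -0.012 without KO_d24_2. Summed elongating spermatid markers were at 503 and 444 CPM in WT and 1559.9 and 765 CPM in KO, highest in KO_d24_1, where *Tekt5* was highest too. Leydig markers were at 585 and 845 against 1052 and 1292 CPM, peritubular markers at 527 and 582 against 467 and 468 CPM, pachytene markers at 5032 and 4613 against 5091 and 5241 CPM and round spermatid markers at 564 and 430.2 against 508 and 486 CPM. None of these markers was called at day 24, and their part in the values was not tested.

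At day 26 most of the genes stood higher in both KO libraries, but none passed the test across all libraries. Called were 0 genes (all genes, 0.0466%), 4 had an unadjusted p under 0.05, the lowest adjusted p was 0.206, and DESeq2 called 0. Both KO libraries lay above both WT libraries for 39 of the 56 genes, against 27.8% of all genes, and below for 2, *Dnah11* and *Rsph4a*, against 31.1%. Over the 56 genes the log2 fold changes had a median of 0.25 (all genes -0.04), and 52 lay above 0 (all genes 45.7%), all 17 Cfap genes and all 5 tektins among them. The median was 0.18 without WT_d26_1 and 0.36 without WT_d26_2. *Rsph3a* stood at 86.3 and 97.1 CPM in WT and 164 and 148 CPM in KO (0.77 ± 0.23). *Rsph6a* stood at 119.7 and 126 CPM and 192 and 190.1 CPM (0.64 ± 0.32). *Ift22* stood at 59.6 and 63.4 CPM and 91.4 and 88.2 CPM (0.55 ± 0.17), *Ift43* at 46.8 and 58.4 CPM and 73.4 and 84.2 CPM (0.58 ± 0.27), and *Ift27* at 19.0 and 20.4 CPM and 28.4 and 25.3 CPM (0.44 ± 0.21).

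The calls at day 26 depended on which libraries were fitted together. With the 4 libraries of day 26 fitted alone, 19 of the 56 genes were called higher and 0 lower, against 7.51% of all genes called higher in that fit. The 19 genes were *Rsph3a*, *Rsph6a* and *Rsph14*, *Tekt1*, *Tekt3* and *Tekt4*, *Drc1* and *Drc7*, *Dnah2*, *Dnah6* and *Dnah17*, *Cfap53*, *Cfap70*, *Cfap97* and *Cfap126*, and *Ift22*, *Ift27*, *Ift43* and *Ift122*. *Rsph3a* had an adjusted p of 0.00235 there (edgeR). That fit rests on 2 libraries per genotype. Summed pachytene markers moved the same way, at 5513 and 6088 CPM in WT and 7303 and 7568 CPM in KO, with 8 of 8 markers above 0 and 0 called. This sum is not independent of axoneme genes. It includes *Spag6*, also in the list of other axoneme genes below, at means of 425 CPM in WT and 598 CPM in KO. The summed markers of round spermatids (824 and 859 against 875 and 952 CPM) lay closer together, with 0 of 10 called. Summed elongating spermatid markers were at 1913 and 3040 CPM in WT and 3090 and 3156 CPM in KO. Summed Sertoli cell markers were higher in KO, at 1055 and 1229 against 1280.1 and 1291 CPM. Lower in KO were the sums of Leydig markers at 1258 and 2050 against 1049 and 1173 CPM, peritubular markers at 419 and 496 against 339.7 and 379 CPM and spermatogonia markers at 173 and 185 against 155 and 158 CPM. The part of these shifts in the values of the 56 genes was not tested.

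Over the unweighted mean of the 4 ages, 3 genes were called higher in KO and 0 lower; over all genes 3.52% were called higher. *Rsph3a* (chr17:7945614-7979824) had a mean log2 fold change of 0.51 ± 0.10 (adjusted p = 0.00461), and this call was kept without any 1 of the 24 libraries. At day 20 it stood at 88.4, 60.2, 66.9 and 100.1 CPM in WT and 128, 107, 91.0 and 80.8 CPM in KO. At day 22 it stood at 98.7, 95.2, 80.3 and 87.6 CPM and 115, 130.5, 102 and 84.0 CPM. The genotypes overlap at these ages and not at days 24 and 26. Those have only 2 libraries per genotype, and 22.6% and 27.8% of all genes had both KO libraries above both WT libraries there. The joint test over the ages, given below, did not call *Rsph3a* (adjusted p = 0.825 by edgeR). WT levels stayed within 60.2 to 100.1 CPM over all ages. Its close copy *Rsph3b* (chr17:6904413-6948682), named for comparison, had a mean difference of 0.18 ± 0.09 (adjusted p = 0.201). The promoter windows of the pair share 60.9% of 256 aligned bases, and read pairs that fit both copies were discarded from both. The window of *Rsph3a* is shown because its call was kept in each of those fits. It holds none of the motifs above and is therefore all in lower case. It runs 5′ to 3′ on the plus strand (RefSeq, GRCm38.p6).
Rsph3a, chr17:7945364-7945663: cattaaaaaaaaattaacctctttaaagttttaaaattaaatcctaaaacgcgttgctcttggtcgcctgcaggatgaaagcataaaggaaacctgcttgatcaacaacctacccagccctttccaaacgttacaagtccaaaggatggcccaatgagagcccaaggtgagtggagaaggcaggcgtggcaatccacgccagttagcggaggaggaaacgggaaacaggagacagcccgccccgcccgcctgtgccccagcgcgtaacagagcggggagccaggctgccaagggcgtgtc

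*Ift22* (chr5:136908150-136915404) had a mean log2 fold change of 0.31 ± 0.07 (adjusted p = 0.021), and its call was lost without KO_d24_2 or without WT_d24_2. It stood at 51.7, 55.3, 39.0 and 47.9 CPM in WT and 71.0, 61.9, 55.2 and 46.5 CPM in KO at day 20, and at 63.4, 60.4, 53.2 and 56.5 CPM and 64.4, 75.0, 66.7 and 60.5 CPM at day 22. The third was *Tekt4* with 0.49 ± 0.13 (adjusted p = 0.0323), whose call was lost in 8 of the 24 fits that left out 1 library, those without WT_d22_4 and without any 1 of the libraries of days 24 and 26 except WT_d24_1. *Dnah9* (0.38 ± 0.13, adjusted p = 0.0797) and *Ift27* (0.25 ± 0.09, 0.106) came next. Both were called by DESeq2, *Dnah9* also without KO_d20_2 or WT_d22_1, and *Ift27* also without WT_d20_1. In all, 53 of the 56 genes had a mean difference above 0 (all genes 51.0%), with a median of 0.14 (all genes 0.0050).

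Whether the KO difference changed with age was tested jointly over the ages. Called were 0 of the 56 genes (all genes, 0.00582%); 2 had an unadjusted p under 0.05. The lowest were *Cfap61* (adjusted p = 0.516 by edgeR), *Tekt4* (adjusted p = 0.542) and *Cfap58* (adjusted p = 0.565). For *Cfap61* the levels of the genotypes overlapped at day 22, at 14.9, 15.3, 14.2 and 15.7 CPM in WT and 12.9, 19.4, 14.6 and 16.0 CPM in KO, and lay close together at day 26, at 21.5 and 23.1 CPM and 23.5 and 23.8 CPM. *Tekt4* overlapped at day 24, with 122 and 107 CPM in WT and 113 and 117 CPM in KO, and stood at 142 and 156 CPM and 209 and 202 CPM at day 26.

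**Figure D4:**
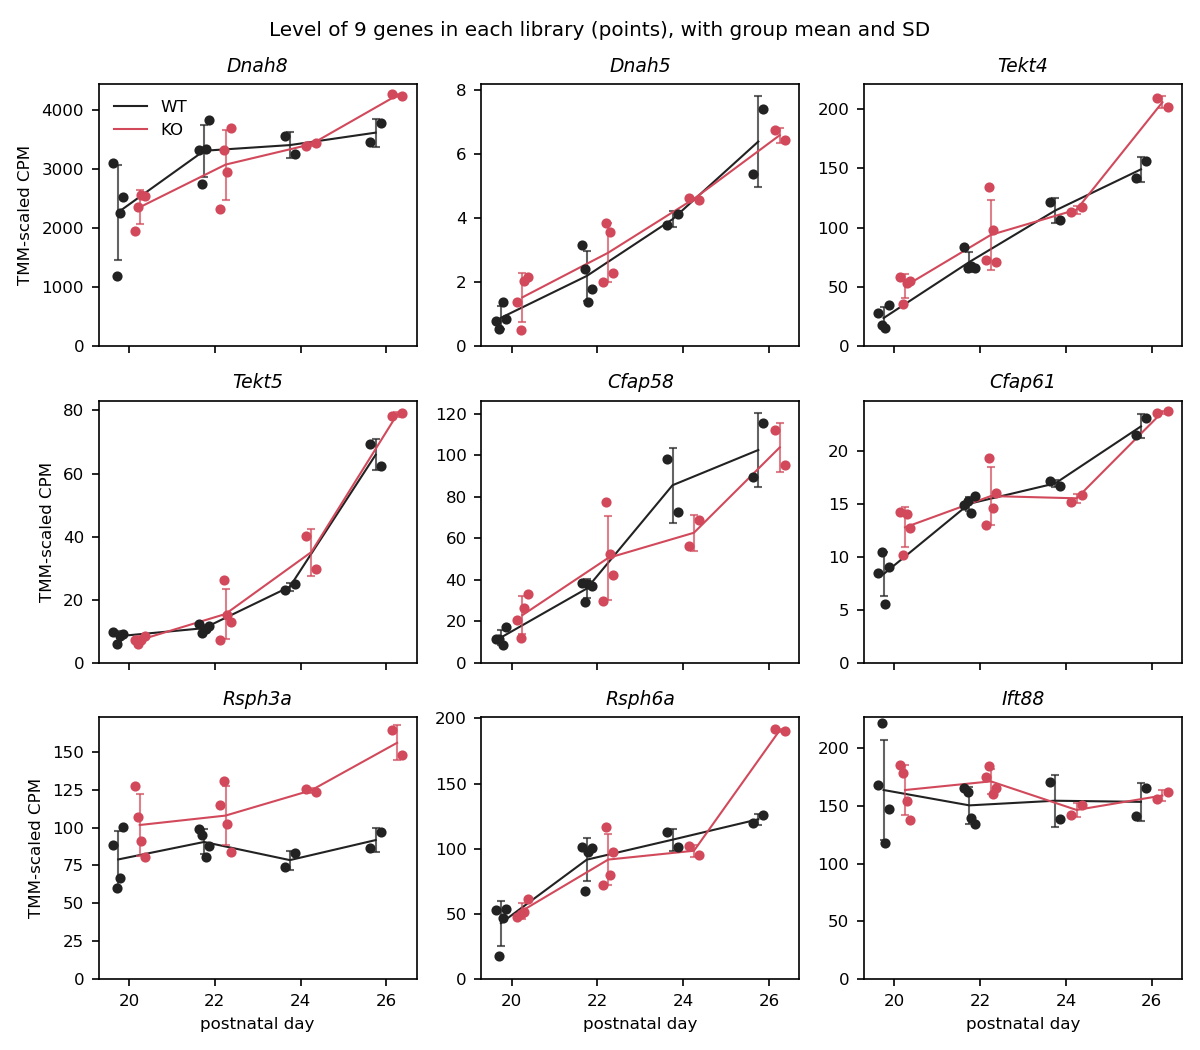
TMM-scaled CPM of 9 of the genes in each library (points) by postnatal day, WT in black and KO in red, with lines through the group means and SD as bars (4 libraries per genotype at days 20 and 22, 2 at days 24 and 26). *Tekt5* climbs late and *Ift88* stays level. The genotypes do not overlap for *Rsph3a* at days 24 and 26 and for *Rsph6a* at day 26, each with 2 libraries per genotype.

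**Figure D5:**
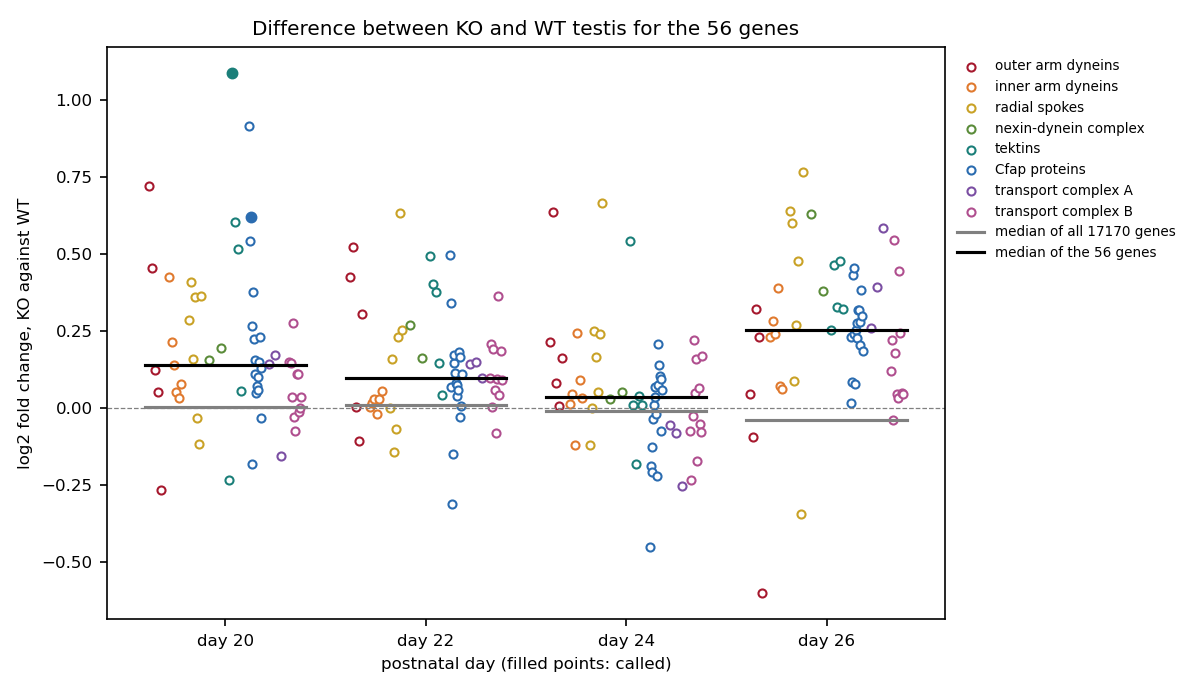
Log2 fold change of KO against WT for each of the 56 genes at each age, coloured by role. Filled points were called, black lines are medians of the 56 genes and grey lines medians of all 17170 genes tested. The black line is highest at day 26, at 0.25, where no point is filled; *Tekt4* and *Cfap61* are filled at day 20.

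Genes of the same structures that carry other names were read out for comparison. Of 39 other axoneme and dynein assembly genes, all tested, 27 rose (69.2%, against 24.4% of all genes) and 0 fell from day 20 to day 26 in WT, with a median log2 fold change of 0.83. The largest was *Spag6l*, a central pair gene, at mean levels of 1.51 CPM at day 20 and 110.1 CPM at day 26 (6.16). *Efhc2* (3.29) and *Nme8* (2.37) followed. In KO against WT, 2 of the 39 (5.13%, against 2.98% of all genes) were called higher at day 20, *Spag6l* at a mean of 1.51 CPM in WT and 14.8 CPM in KO (3.27 ± 0.55, adjusted p = 0.0053) and *Nme8* (0.80 ± 0.16, adjusted p = 0.0103). At days 22, 24 and 26, 0 were called. The median difference was 0.12, 0.04, -0.04 and 0.32 at days 20, 22, 24 and 26. Leaving out 1 library moved it between 0.062 (WT_d20_2) and 0.26 (WT_d20_1) at day 20, -0.03 (KO_d22_2) and 0.15 (KO_d22_1) at day 22, -0.12 (WT_d24_2) and 0.051 (WT_d24_1) at day 24, and 0.24 (WT_d26_1) and 0.43 (WT_d26_2) at day 26, where 2 were called without WT_d20_2.

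Of 30 other intraflagellar transport and BBSome genes, 9 rose, a share near the 24.4% of all genes, and 2 fell from day 20 to day 26 in WT, with a median of 0.19, and *Hspb11* and *Tulp3* were those that fell. Without WT_d26_2, 6 rose, and without WT_d20_3 the median was 0.067. The largest rise was that of *Kif17*, a kinesin, from a mean of 2.94 CPM to 145 CPM (5.61), and it was also the 1 gene of this list (3.33%, against 2.98% of all genes) called at day 20 between genotypes, at 13.8 CPM in KO (2.22 ± 0.50, adjusted p = 0.0173). That call was lost without any 1 of KO_d20_3, KO_d20_4, WT_d20_1, WT_d20_2 and WT_d20_3. *Dync2h1*, the heavy chain of the motor of retrograde transport, was level, at 724 CPM and 773 CPM in WT and at 725 CPM and 756 CPM in KO.

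Of 17 transcription regulators of ciliary and spermatid genes, 16 were tested and 12 rose in WT from day 20 to day 26 (all genes, 24.4%), while *Taf7l* fell. *Rfx2*, an X-box factor of the testis, went from a mean of 126 CPM to 301 CPM (1.26), and *Foxj1*, the master factor of motile cilia, from 3.09 CPM to 80.5 CPM (4.68). At day 20, 2 of the 16 (12.5%, against 2.98% of all genes) were called higher. *Foxj1* was called higher in KO at 16.1 CPM (2.36 ± 0.45, adjusted p = 0.00922), as was *Spz1* (2.97 ± 0.64, adjusted p = 0.0138), whose call was lost without any 1 of KO_d20_4, WT_d20_2 and WT_d20_3. *Fhl5*, a partner of CREM, was called higher in KO at day 22 (2.30 ± 0.53, adjusted p = 0.0293), a call lost without any 1 of KO_d22_2, WT_d22_2, WT_d22_3 and WT_d22_4. *Rfx2* was not called between genotypes at any age.

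Ciliated epithelium of the efferent ducts also uses many of the 56 genes. Of its markers, *Mcidas* was at 0 to 0.272 CPM, *Gmnc* at 0.116 to 1.22 CPM and *Ccno* at 1.16 to 3.16 CPM over the 24 libraries, while *Foxj1* and *Tubb4b*, which germ cells express too, made up most of the summed level of the 6 markers listed (192 to 490 CPM in WT and 406 to 540 CPM in KO at day 20, 801 and 916 against 1003 and 1019 CPM at day 26). At days 22 and 24 that sum lay at 475 to 608 and 637 to 726 CPM in WT and at 561 to 819 and 603 to 646 CPM in KO. Of the 5 of these markers tested, 1, *Foxj1*, was called between genotypes at day 20. Summed epididymis markers ranged from 0 to 753 CPM over the libraries and were highest in WT_d24_2. At days 20, 22, 24 and 26 the highest WT library stood at 288, 545, 753 and 550 CPM. The highest KO library stood at 52.2, 131, 159 and 130 CPM at these ages. The part of these markers in the values of the 56 genes was not tested.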

How the data were processed

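Total RNA of whole mouse testis was sequenced in 24 libraries. The authors aligned the reads with STAR 2.7.11b to mm10 and deposited raw counts per gene, made with HTSeq over exons on the reverse strand in its strict intersection mode; read pairs with several alignments were discarded, which lowers near-identical copies. The version of their gene annotation is not given in the sources used here. The study itself used DESeq2 1.22.2. Summary rows that name no gene were left out. The counts were fitted with edgeR 4.0.16 (TMM scaling, filterByExpr with a minimum count of 10, quasi-likelihood test, 1 coefficient for each of 8 groups, Benjamini-Hochberg adjustment over 17170 genes, threshold 0.05) and the fit was tested on simulated data. Alternatives were DESeq2 1.42.0, its scaling, no count filter, a threshold of 0.1, each day or genotype fitted alone, a replicate block and leaving out each library. Members and gene lists were chosen with earlier results of these data known. Named members are the 10 largest called (or 5 lowest p) per KO comparison, the 10 largest WT rises, the 2 highest levels per kb in each role and the 3 lowest joint p; *Ift88*, *Ift52*, *Ift57*, *Ift122*, *Dnah7a*, *Dnah11*, *Rsph4a*, *Rsph3b*, *Kif17*, *Dync2h1* and genes listed by name within a count were chosen after their values were seen. The labels give 4 libraries per genotype at day 20, where the study's text gives fewer; all were used. The labels do not say that replicates were separate animals, so p-values measure the spread between these libraries. SD and SE follow the ± sign.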

Additional observations from a re-analysis of the deposited data

Results flagged for a closer look

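In the groups of 4 libraries, 8 of 116 sets of values of the 29 named members had 1 library far from the other 3 by Dixon's criterion, and chance flags about 5% of such sets. WT_d22_2 was low in 3 of them, with *Cfap58* at 29.2 CPM (others 37.1 to 38.7), *Rsph1* at 322.7 CPM (others 429.6 to 446.7) and *Rsph6a* at 67.3 CPM (others 97.6 to 101.0). WT_d22_1 was high in 4, with *Ift27* at 21.0 CPM (others 18.5 to 18.6), *Ift43* at 59.5 CPM (others 42.0 to 42.6), *Tekt3* at 133.9 CPM (others 100.4 to 104.5) and *Tekt4* at 83.9 CPM (others 66.0 to 67.9). *Dnah9* was low in WT_d20_3 at 3.06 CPM (others 4.63 to 4.90).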

How the results depend on the processing

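Among the single gene values printed, 5 uncalled differences near 0 for WT day 26 against day 20 changed sign: with the replicate block *Dnah11* was at -0.31, *Dnah7b* at -0.063 and *Ift52* at -0.087, and leaving out 1 library gave -0.15 to 0.34 for *Dnah11*, -0.11 to 0.15 for *Dnah7b*, -0.11 to 0.19 for *Ift27*, -0.077 to 0.045 for *Ift52* and -0.25 to 0.048 for *Ift88*. Over all 56 genes, 19 differences at day 20 changed sign without WT_d20_2. The count of called members for KO against WT at day 20, 2 in the report, was 0 with each day fitted alone and 1 with the replicate block, and ran from 1 to 4 when 1 library was left out. At day 22 it ran from 0 to 1 in those fits. At day 26 it was 19 with each day fitted alone. Over the mean of the ages, 3 in the report, it was 5 by DESeq2 and ran from 1 to 4 when 1 library was left out. For WT day 24 against day 22, 3 in the report, it was 0 with the replicate block and ran from 0 to 3. For WT day 26 against day 24, 0 in the report, it was 1 by DESeq2, 1 with each genotype fitted alone, 1 at an adjusted p under 0.1, and ran from 0 to 1. The causes were not tested. The median log2 fold change of the members from day 20 to day 26 in WT ran from 0.63 to 0.91 when 1 library was left out. The median difference of the members at day 24 ran from -0.033 to 0.097 in those fits. Of the values of single genes and medians, 2135 were counted as unchanged, 24 passed the threshold, 44 lost it, 21 changed sign and 2, medians from day 20 to day 26 in WT, rose to 0.91 (with the replicate block and without WT_d20_1). The 21 are all values of single genes. The median at day 24 was counted as unchanged though it went below 0 in some of the fits. Replicate numbers are shared between genotypes. Same-numbered libraries had correlated deviations of 0.07 to 0.41 at day 20, -0.46 to -0.03 at day 22, 0.39 at day 24 and 0.42 at day 26. Not every pair was over 0.1 and the labels name no shared source, so the numbers were not taken as pairs and the block is given only here. In simulated data the comparison at day 26 recovered 20% of genes changed 1.5-fold, 56% at 2-fold and 92% at 4-fold.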
